A study of Mus musculus with 27 samples.

Results

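The miR-344 family was followed across 27 mouse small-RNA libraries as the 17 mature miRNAs whose names start with miR-344, of 844 mature miRNAs listed in all. Its leading members, miR-344-3p and miR-344d-3p, were chosen by their differing levels among the neuron types of these same libraries, so the neuron levels are given as a description with no test. All animals were C57BL/6. The suprachiasmatic nucleus (SCN, the hypothalamic nucleus that holds the central circadian clock), hypothalamus and cortex gave 2 libraries each. SCN tissue was also sampled at 11 times, 4 h apart, with 1 library per time between ZT2 and ZT42 (zeitgeber time, in hours after lights on). From the SCN, 2 libraries each were made of neurons labelled AVP (vasopressin), VIP (vasoactive intestinal peptide) and CCK (cholecystokinin), after peptides that mark SCN cell types. At circadian time 18 h (CT18), 2 SCN libraries labelled CTRL stood beside 2 labelled LP, an abbreviation that the labels do not spell out and that belongs to the study's examination of light-responsive miRNAs. The sources used here give no age, sex, number of pooled animals, driver line or way in which the neurons were collected. Avp, Vip and Cck mRNAs are not part of these small-RNA files, so the neuron labels were not checked against them.

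A miRNA precursor folds into a hairpin, and Dicer releases a duplex from which either the 5p or the 3p strand is loaded into Argonaute. The loaded strand pairs with messenger RNAs mainly through its seed, bases 2 to 8, so members that share a seed are predicted to share targets. miR-344 is known from mouse and rat, where a cluster of hairpins encodes it, and its members have been found mainly in brain.

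By RefSeq (GRCm38.p6), the family comes from 13 hairpins on the minus strand of chromosome 7 between chr7:61683124-62085310, a span of 402 kb. GENCODE M21 (also GRCm38) places all of them at the same coordinates. Introns of the lincRNA A230057D06Rik (chr7:61704519-61928690, minus strand) hold 7 of them, from Mir344d-3 to Mir344. The processed transcript A330076H08Rik overlaps another 2, Mir344-2 in an intron and Mir344g across an exon. The remaining Mir344d-1, Mir344d-2, Mir344f and Mir344i overlap no annotated gene. The imprinted, paternally expressed genes Ndn and Magel2 lie 261 and 292 kb from the cluster. No other RefSeq miRNA precursor lies within 1 Mb.

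All 17 members matched a RefSeq mature sequence. The 6 members that reached at least 10 CPM (counts per 1000000 miRNA reads) in at least 2 libraries are shown first, since the results turn on them, with the seed in capitals:
miR-344-3p: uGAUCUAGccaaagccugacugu
miR-344b-3p: cAUUUAGCcaaagccugacugu
miR-344d-3p: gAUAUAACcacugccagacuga
miR-344d-3-5p: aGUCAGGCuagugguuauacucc
miR-344f-3p: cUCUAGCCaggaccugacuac
miR-344f-5p: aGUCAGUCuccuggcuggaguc

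These 6 members carry 6 different seeds. miR-344-3p and miR-344b-3p share an unbroken run of 18 bases but not the seed, and how reads that fit more than 1 member were assigned is not given in the sources used here. Across the 17 members there are 10 seeds. The 5p seed GUCAGGC belongs to 5 members in the data, GAUCUAG to miR-344-3p and miR-344c-3p, and AUAUAAC to miR-344d-3p and miR-344e-3p. The last of these is also the seed of miR-410-3p, a miRNA of another, imprinted cluster. The mature sequences of miR-344e-5p and miR-344h-5p are identical, and so were their values in every library.

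Both strands of 2 hairpins were measured well enough to set side by side, and these hairpins are printed with the 5p and 3p mature strands in capitals. Mir344d-3 lies at chr7:61726249-61726328 (minus strand, intron of A230057D06Rik) and Mir344f at chr7:62046181-62046248 (minus strand, no annotated gene):
Mir344d-3: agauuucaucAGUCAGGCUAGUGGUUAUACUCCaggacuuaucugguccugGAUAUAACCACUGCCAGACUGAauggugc
Mir344f: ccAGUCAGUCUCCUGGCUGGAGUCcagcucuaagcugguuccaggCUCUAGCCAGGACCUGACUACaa

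miR-344d-3-5p is made from Mir344d-3 alone, whereas miR-344d-3p is encoded with the same sequence by Mir344d-1, Mir344d-2 and Mir344d-3. miR-344-3p is encoded by Mir344 and Mir344-2. Each miR-344f strand has the single source Mir344f.

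Libraries held 469808 to 5133920 miRNA reads. Tissue, time course and CT18 libraries held at least 1766808. The AVP libraries held 537185 and 908476 reads, the VIP libraries 2812318 and 2786568, and the CCK libraries 469808 and 487360, so the level that 3 reads correspond to, used as the floor for 0 reads, was 1.07 to 6.39 CPM in neurons. Intervals and floors cover counting error only. A fold given as at least is the measured mean over the level of 3 reads across both libraries of the lower type. It does not count the spread of that mean. The labels number replicates without saying that they came from separate animals, so p-values measure the spread between these libraries, which may be technical. In bulk tissue, fewer cells of a type and less RNA per cell cannot be told apart. Of the neuronal miRNAs, miR-137-3p and miR-138-5p had 0 reads in both AVP libraries. The first AVP library also had 0 reads of miR-218-5p, and the first CCK library 0 reads of miR-138-5p. Together, 10 neuronal miRNAs summed to 6300 and 7333 CPM in AVP, 16218 and 22851 in VIP and 13338 and 15145 in CCK neurons. In SCN tissue that sum was 34546 and 40027 CPM, above all 6 neuron libraries. Single-library drop-out was common in neurons. Of miRNAs with at least 10 CPM in 1 library of a type, 25.7% had 0 reads in the other AVP library, 13.2% in the other VIP and 24.2% in the other CCK library, against 0% in each of the 3 tissues.

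The 2 leading members were abundant in AVP neurons and at or near 0 in VIP neurons. miR-344d-3p had the most reads of any member over all 27 libraries together. In the 2 AVP libraries it stood at 499.9 and 386 CPM (268 and 350 reads), and in the CCK libraries at 371 and 292 CPM (174 and 142 reads). In the VIP libraries it had 0 reads and 12 reads, or 0 and 4.3 CPM. The mean was 443 ± 80.5 CPM (SD, n = 2) in AVP, 331 ± 55.9 in CCK and 2.15 ± 3.04 in VIP neurons. The AVP mean was 206-fold and the CCK mean 154-fold the VIP mean, while AVP and CCK means differed 1.34-fold. Each AVP and CCK library lay above both VIP libraries.

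miR-344-3p stood at 151 CPM (95% exact Poisson interval 120 to 187) and 67.2 CPM (51.4 to 86.3) in AVP neurons. It had 0 reads in both VIP libraries, where 3 reads would be 1.07 and 1.08 CPM. In CCK neurons it stood at 42.6 CPM (20 reads) and 4.1 CPM (2 reads). The AVP mean of 109 ± 59.3 CPM (SD, n = 2) was at least 204-fold higher than in VIP neurons, counting 3 reads over both VIP libraries as the floor. It was 4.67-fold the CCK mean of 23.4 ± 27.2 CPM, and the CCK mean in turn was at least 43.6-fold higher than in VIP neurons. The AVP and CCK libraries did not overlap, but the CCK libraries differed from each other by more than the gap to the nearer AVP library.

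The VIP libraries were the deepest of the neuron libraries. Of 185 miRNAs with at least 10 CPM in both AVP libraries, 11 had 0 reads in both VIP libraries (5.95%), among them miR-344-3p and miR-344f-3p. In the other direction, 23 of 185 miRNAs at that level in VIP neurons had 0 reads in both AVP libraries (12.4%), among them miR-344f-5p.

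**Figure D1:**
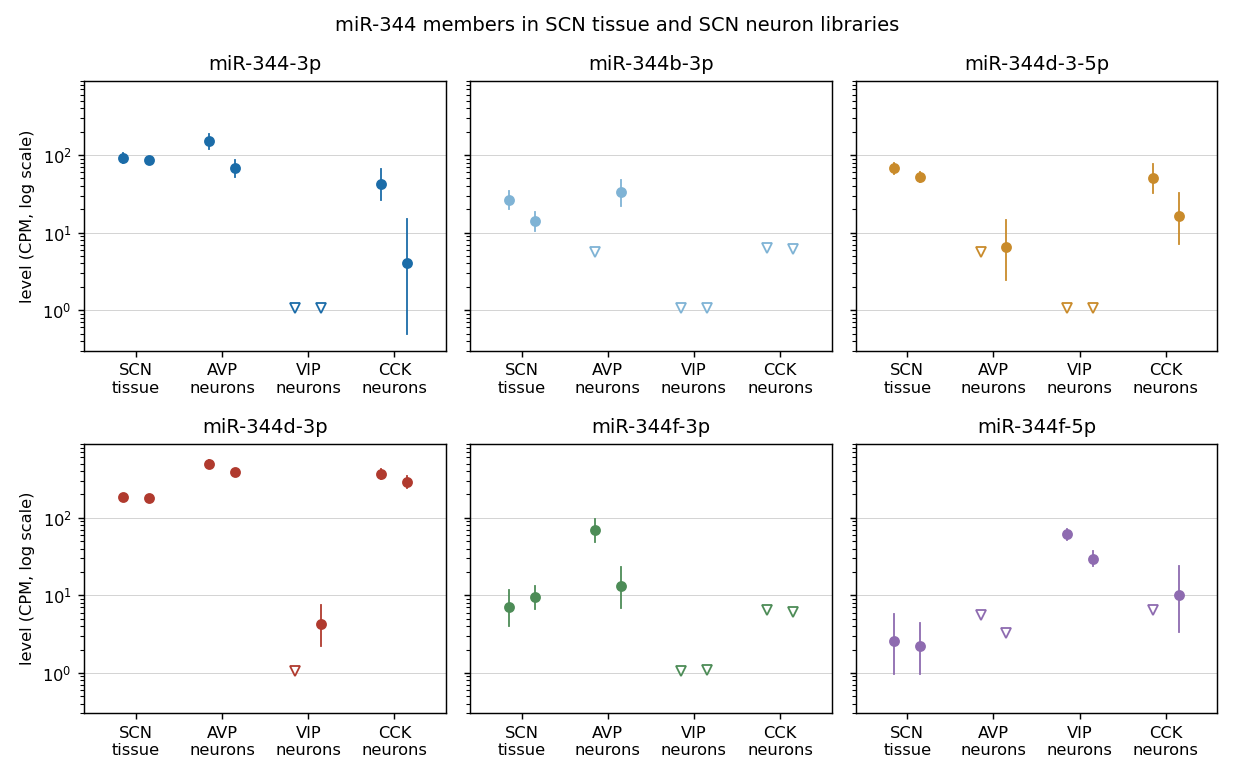
Level of 6 miR-344 members in SCN tissue and in AVP, VIP and CCK neurons (y axis, CPM on a log scale; 1 point per library with its 95% exact Poisson interval; open triangles mark 0 reads and are drawn at the level of 3 reads). miR-344-3p and miR-344d-3p are high in AVP and at or near 0 in VIP neurons, while miR-344f-5p is highest in VIP neurons.

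Among the neurons, the strands of Mir344f were highest in different types. miR-344f-5p, the 5p strand, stood at 61.2 and 29.8 CPM in VIP neurons (172 and 83 reads), had 0 reads in both AVP libraries, and had 0 and 10.2 CPM (5 reads) in CCK neurons. Its VIP mean of 45.5 ± 22.2 CPM (SD, n = 2) was at least 21.9-fold higher than in AVP neurons and 8.92-fold the CCK mean. miR-344f-3p, the 3p strand, stood at 69.0 and 13.2 CPM in AVP neurons (37 and 12 reads) and had 0 reads in all VIP and CCK libraries. Its AVP mean of 41.1 ± 39.5 CPM was at least 76.7-fold higher than in VIP and at least 13.1-fold higher than in CCK neurons. VIP neurons thus gave 255 reads of the 5p strand and none of the 3p strand, and AVP neurons gave 49 reads of the 3p strand and none of the 5p strand. In SCN tissue both strands were present at low levels, with 7.1 and 9.4 CPM of miR-344f-3p and 2.6 and 2.2 CPM of miR-344f-5p.

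For Mir344d-3, the 5p strand was highest in CCK neurons among the 3 neuron types, with a mean below that of SCN tissue. miR-344d-3-5p stood at 51.1 and 16.4 CPM in CCK neurons (24 and 8 reads), at 0 and 6.6 CPM in AVP neurons (0 and 6 reads) and had 0 reads in both VIP libraries. Its CCK mean of 33.8 ± 24.5 CPM was 10.2-fold the AVP mean. The ratio of miR-344d-3p to miR-344d-3-5p was 7.25 and 17.8 in the CCK libraries and 58.5 in the AVP library where both had reads, against 2.74 and 3.43 in SCN tissue. That ratio also counts miR-344d-3p from Mir344d-1 and Mir344d-2, whose own 5p strands never exceeded 1.7 CPM in any library. A low 5p strand does not tell how much 3p strand a hairpin gives, so the source of miR-344d-3p cannot be told apart here. miR-344b-3p was seen in a single neuron library, at 33.0 CPM (30 reads) in 1 AVP library and 0 reads in the other 5.

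Of the 17 members, 5 passed the minimum of 10 CPM in at least 2 neuron libraries. Here a member was said to stand apart where the 2 libraries of each type did not overlap and the means differed at least 2-fold. Between AVP and VIP neurons 4 of the 5 stood apart (miR-344-3p, miR-344d-3p and miR-344f-3p higher in AVP, miR-344f-5p higher in VIP), beside 56.1% of all 305 miRNAs that passed. Between AVP and CCK neurons 3 of 5 stood apart, beside 43.9% of all, and between VIP and CCK neurons 4 of 5, beside 51.5%. miR-344f-3p passed the minimum only through the AVP libraries, and miR-344d-3-5p only through the CCK libraries. Their standing apart in those types is thus partly set by the minimum itself. The members were also chosen on these contrasts, so nothing is read from the shares. Each neuron type used here also appears in 2 of the 3 contrasts.

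Markers of other cells also differed between the neuron types. The summed level of 6 miRNAs of choroid plexus and ciliated cells was 9453 and 7564 CPM in VIP neurons, 1500 and 1914 in CCK and 83.8 and 290 in AVP neurons. In VIP neurons, the ciliated-cell miRNAs miR-449a-5p, miR-34b-3p and miR-34b-5p and the choroid plexus miRNA miR-211-5p had 0 reads, as they did in AVP neurons. In CCK neurons all of these but miR-34b-3p had 0 reads. The first VIP library also had 0 reads of miR-34c-5p, so its 9453 CPM came from miR-204-5p alone. Of 3 red cell miRNAs, the sum was 2107 and 2164 CPM in AVP neurons against 943 to 1170 in the other types, with the defining miR-451a and miR-144-3p at 0 reads in AVP and CCK neurons. Vascular miRNAs (4 found) summed to 3.3 to 176 CPM and microglial and leukocyte miRNAs (6 found) to 0 to 159 CPM over the 6 libraries. Oligodendrocyte miRNAs (4 found) summed to 45.1 and 134 CPM in AVP, 631 and 742 in CCK and 756 and 1249 in VIP neurons, with miR-219-5p and miR-219-2-3p at 0 reads in every neuron library. The part of these cells in the miR-344 levels was not tested.

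Tissue levels are not those of the neuron contrasts on which the members were chosen, although tissue results were also known at that time. They were tested with limma over the 378 miRNAs that reached 10 CPM in at least 2 of the 6 tissue libraries. Of the 17 members, 4 passed that minimum. miR-344d-3p was highest in the SCN, whereas miR-344-3p and miR-344b-3p were highest in hypothalamus.

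miR-344d-3p stood at 185 and 177 CPM in the SCN, at 90.7 and 95.5 in hypothalamus and at 47.9 and 58.0 in cortex, with no overlap between tissues. It was 1.95-fold higher in SCN than in hypothalamus (log2 fold change 0.96 with an SE of 0.16, limma adjusted p = 0.000601), and it was 3.42-fold higher than in cortex (1.78 ± 0.16, limma adjusted p = 6.38e-06). Both calls held in all 14 alternatives that were run for each.

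miR-344-3p took the other order, with 238 and 199 CPM in hypothalamus, 92.2 and 85.1 in the SCN and 101 and 77.5 in cortex. It was 2.46-fold higher in hypothalamus than in SCN (log2 fold change SCN against hypothalamus -1.29 ± 0.18, limma adjusted p = 0.000182). SCN and cortex overlapped, and the difference was 0.00 on the log2 scale with a 95% interval of -0.40 to 0.41. miR-344b-3p followed the same order, with 56.1 and 42.8 CPM in hypothalamus, 26.2 and 14.2 in the SCN and 23.7 and 17.4 in cortex. Its SCN to hypothalamus log2 fold change was -1.34 ± 0.33 (limma adjusted p = 0.0053), and the interval for SCN against cortex was -0.82 to 0.67.

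miR-344d-3-5p, the strand paired with miR-344d-3p in Mir344d-3, stood at 67.7 and 51.6 CPM in the SCN, 47.3 and 65.3 in hypothalamus and 32.5 and 32.8 in cortex. SCN and hypothalamus overlapped (log2 fold change 0.09, 95% interval -0.42 to 0.60). Against cortex it was 1.83-fold higher in SCN (0.85 ± 0.23, limma adjusted p = 0.0059), a call lost under quantile normalization (0.53, adjusted p = 0.0763).

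**Figure D2:**
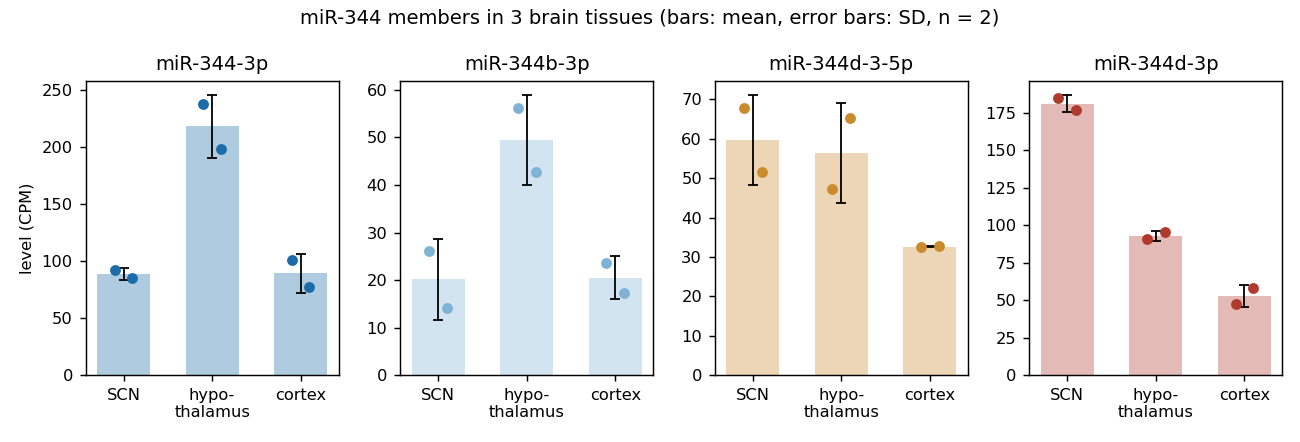
Levels of the 4 tested miR-344 members in SCN, hypothalamus and cortex (y axes, CPM from 0; points are libraries, bars the mean and error bars the SD of 2 libraries). miR-344d-3p falls from SCN to hypothalamus to cortex, while miR-344-3p and miR-344b-3p are highest in hypothalamus.

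In SCN against hypothalamus, 3 of the 4 tested members changed, 1 higher and 2 lower, beside 70.9% of all 378 miRNAs. In SCN against cortex 2 of 4 changed, both higher, beside 80.2% of all called in either direction (156 higher and 147 lower). Between hypothalamus and cortex all 4 were higher in hypothalamus, beside 58.2% of all called in either direction (158 higher and 62 lower). There miR-344-3p was 2.44-fold higher (log2 fold change 1.29 ± 0.18, limma adjusted p = 0.000254), miR-344b-3p 2.41-fold (1.27 ± 0.33, adjusted p = 0.00913), miR-344d-3p 1.76-fold (0.82 ± 0.16, adjusted p = 0.00207) and miR-344d-3-5p 1.72-fold (0.77 ± 0.23, adjusted p = 0.0163). With 4 members, nothing is read about the family from these shares.

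The median of all 378 miRNAs was itself shifted by -0.29 (log2) in SCN against hypothalamus and by 0.41 in hypothalamus against cortex. Median-ratio scaling, which centres most miRNAs, moved all log2 fold changes by 0.29 and -0.34 in these contrasts. The calls then ran 128 higher and 131 lower in place of 106 and 162, and 109 higher and 98 lower in place of 158 and 62. Relative to that centre, miR-344d-3p was 1.25 higher in SCN than in hypothalamus (limma adjusted p = 5.08e-05), and miR-344-3p was still lower (adjusted p = 0.000699). Between hypothalamus and cortex, miR-344d-3-5p (0.42, adjusted p = 0.128) was no longer called under that scaling, and it lost its call in 8 of 14 alternatives. The call of miR-344d-3p in that contrast was lost under quantile normalization (0.26, adjusted p = 0.178) and with DESeq2 (0.47, adjusted p = 0.0817). Only miR-344-3p kept its call between hypothalamus and cortex in all 14 alternatives run. The call of miR-344b-3p there was lost under quantile normalization (0.68, adjusted p = 0.122), with DESeq2 (0.90, adjusted p = 0.0692) and without the second cortex library (1.04, limma adjusted p = 0.0634), and that of miR-344d-3-5p also without the first cortex library (0.76, adjusted p = 0.0655) or the second hypothalamus library (0.53, adjusted p = 0.133).

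Other cells' miRNAs differed between the tissues too. Vascular miRNAs summed to 3850 and 3863 CPM in the SCN, 10880 to 11612 in hypothalamus and 10825 to 11369 in cortex. Oligodendrocyte miRNAs summed to 1004 and 1551 CPM in the SCN, 3566 and 4185 in hypothalamus and 1458 and 1953 in cortex, highest in hypothalamus like miR-344-3p. Choroid plexus and ciliated-cell miRNAs summed to 8623 and 8890 CPM in the SCN, 7212 and 7424 in hypothalamus and 1175 and 1336 in cortex, the order of miR-344d-3p. Neuronal miRNAs summed to 34546 and 40027 CPM in the SCN, 50539 and 53012 in hypothalamus and 152913 and 159902 in cortex, and microglial and leukocyte miRNAs to 1895 to 2077, 2484 to 2692 and 3298 to 3539 CPM, both lowest in the SCN. Red cell miRNAs overlapped between the tissues, at 482 to 862 CPM. The part of these cells in the results was not tested.

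The ratio of miR-344d-3p to miR-344-3p within a library does not depend on scaling, although reads of 2 different sequences need not be captured equally well, so the ratio was set only between libraries. It was 2.01 and 2.08 in the SCN, 0.38 and 0.48 in hypothalamus and 0.47 and 0.75 in cortex. SCN libraries thus had more miR-344d-3p than miR-344-3p reads, and the other tissues fewer. The ratio itself was not tested. Along the time course the ratio ran from 2.25 (ZT2) to 6.98 (ZT18), above the value of the SCN tissue libraries at each of the 11 times. In CT18 CTRL it was 1.83 and 1.80, and in CT18 LP 0.71 and 2.49. In AVP neurons it was 3.31 and 5.74, and in CCK neurons 8.70 and 71.1, the last with 2 reads of miR-344-3p. No ratio could be formed for VIP neurons.

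**Figure D3:**
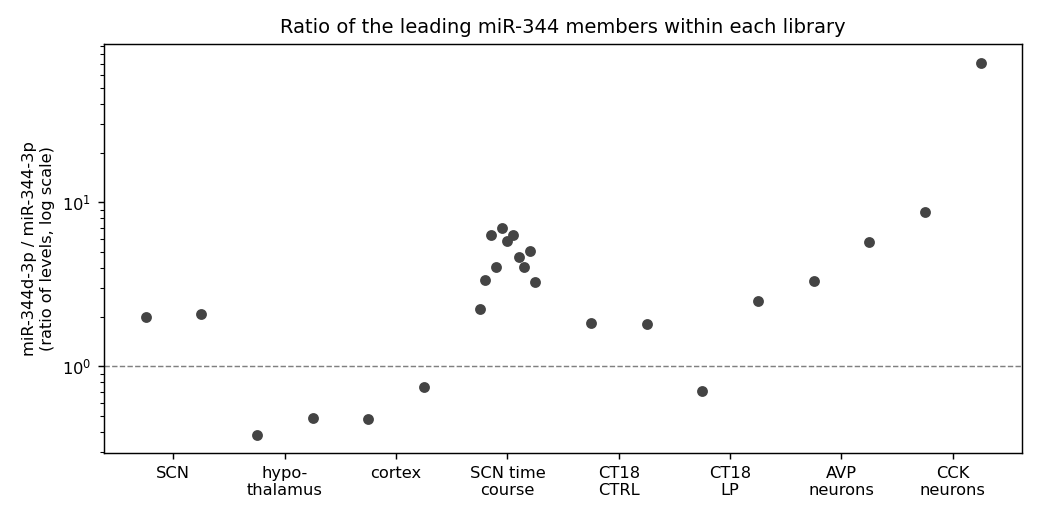
Ratio of the level of miR-344d-3p to that of miR-344-3p in each library with reads of both (y axis, log scale, dashed line at equal levels; 1 point per library, time course points in order of time). SCN, time course, CTRL, AVP and CCK libraries lie above 1, hypothalamus and cortex libraries below 1, and 1 of the 2 LP libraries lies below 1.

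In the LP libraries at CT18 no member passed the test against CTRL, and neither did any of the 317 miRNAs tested (0% called). At an unadjusted p under 0.05, limma and edgeR each passed 1 of the 317 miRNAs and DESeq2 0, and no member was among them. The LP libraries differed from each other in the leading members. miR-344-3p stood at 99.6 and 112 CPM in CTRL and at 209 and 87.5 CPM in LP, on both sides of CTRL (log2 fold change 0.35, 95% interval -0.66 to 1.37, limma adjusted p = 0.992). miR-344d-3p stood at 182 and 203 CPM in CTRL and at 148 and 218 CPM in LP, again on both sides and in the opposite order (-0.10, interval -0.74 to 0.55).

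miR-344b-3p stood at 32.1 and 46.6 CPM in CTRL and 55.5 and 34 in LP (interval -0.72 to 1.05), and miR-344d-3-5p at 72.0 and 68.3 in CTRL and 54.9 and 63.6 in LP (interval -0.85 to 0.35). Only for miR-344d-3-5p did CTRL and LP not overlap. The share of all 317 miRNAs without overlap was not counted, so nothing is read from this. Without the second LP library, miR-344-3p was called higher (log2 fold change 0.98, limma adjusted p = 0.0172) as 1 of 21 called miRNAs of 309, and without the first LP library it turned to -0.27. With a single LP library, its spread is taken to be that of the CTRL libraries. The first LP library had the high miR-344-3p, the high miR-344b-3p and the low miR-344d-3p. Its summed neuronal miRNAs were 72721 CPM against 51043 to 62253 in the CTRL libraries and 53645 in the other LP library. Its vascular miRNAs summed to 1479 CPM against 858 and 1024 in CTRL and 794 in the other LP library, and its microglial and leukocyte miRNAs to 1645 against 2049 and 2307 in CTRL and 2625 in the other LP library. In the sums of the other 3 marker lists it lay within the range of the remaining CT18 libraries. The part of these in the result was not tested.

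Along the SCN time course no member passed the test for a 24 h rhythm, and none of 357 miRNAs did (0% called). At an unadjusted p under 0.05, limma passed 6 miRNAs, edgeR 13 and DESeq2 16, with 0 members in each. Each of the 4 tested members had reads at all 11 times.

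miR-344-3p stood at 91.7 CPM at ZT2, 68.0 at ZT6, 57.2 at ZT10, 57.4 at ZT14, 44.6 at ZT18 and 35.0 at ZT22, then at 35.6, 44.0, 50.6, 53.8 and 59.0 CPM from ZT26 to ZT42. Over the 5 pairs of times 24 h apart, the later level was 0.39 (ZT26 to ZT2), 0.65 (ZT30 to ZT6), 0.88 (ZT34 to ZT10), 0.94 (ZT38 to ZT14) and 1.32 (ZT42 to ZT18) times the earlier one. The fitted 24 h amplitude was 0.15 on the log2 scale (limma adjusted p = 0.95).

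miR-344d-3p stood at 206, 229, 363, 233, 311 and 203 CPM from ZT2 to ZT22 and at 224, 204, 203, 273 and 192 CPM from ZT26 to ZT42. Its highest value, at ZT10, was 1.90 times its lowest, and the level 24 h later was 0.56 times as high. The fitted amplitude was 0.18 (limma adjusted p = 0.95). It was the leading member at every time.

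miR-344b-3p ran from 11.4 CPM (ZT14) to 46.9 CPM (ZT2) with a median of 19.0, and miR-344d-3-5p from 29.6 (ZT6) to 76.9 CPM (ZT18) with a median of 50.3. At ZT2 both miR-344-3p and miR-344b-3p had their highest level of the series of times, and 24 h later they stood at 0.39 and 0.34 times that level. miR-344f-3p ran from 2.5 to 10.3 CPM and miR-344f-5p from 1.9 to 11 CPM, and their ratio from 0.49 (ZT30) to 3.68 (ZT6). Few reads stand behind these ratios: 8 of the 3p and 16 of the 5p strand at ZT30, and 33 and 9 at ZT6. With 1 library per time, a difference between single times has no replicate check.

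**Figure D4:**
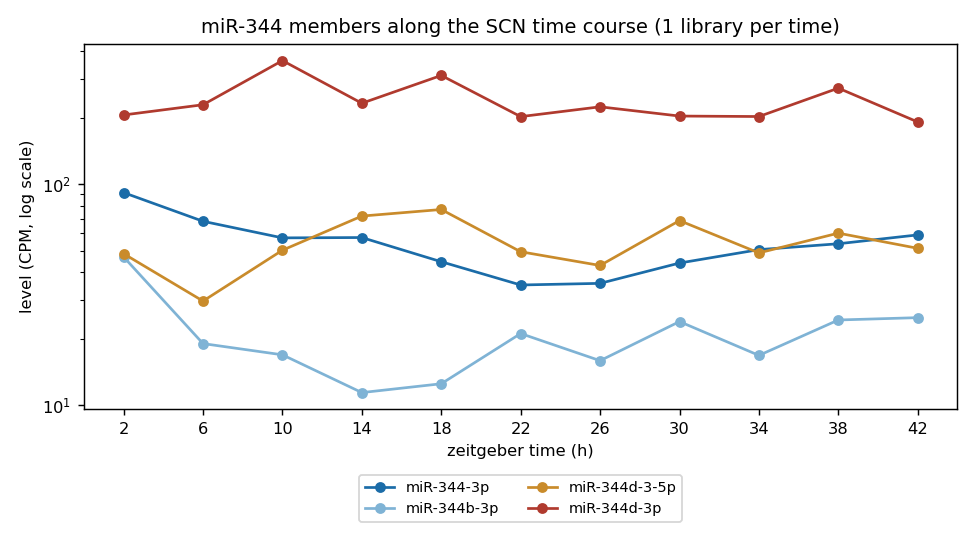
Levels of the 4 tested miR-344 members in the SCN time course (x axis, zeitgeber time in h; y axis, CPM on a log scale; 1 library per time). miR-344d-3p is highest throughout, and miR-344-3p goes from 91.7 CPM at ZT2 to 35.0 at ZT22 and 59.0 at ZT42.

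Set in order, the group means of miR-344d-3p were AVP neurons 443 CPM, CCK neurons 331, the time course 240 ± 54.2 (SD over 11 times), CT18 CTRL 192 ± 14.6, CT18 LP 183 ± 49.8, SCN tissue 181 ± 5.73, hypothalamus 93.1 ± 3.39, cortex 53.0 ± 7.14 and VIP neurons 2.15. The libraries of neighbouring groups overlapped from CCK neurons down to SCN tissue, while AVP and CCK, SCN and hypothalamus, hypothalamus and cortex, and cortex and VIP did not overlap. For miR-344-3p the order was hypothalamus 218 ± 27.4 CPM, CT18 LP 148 ± 85.9, AVP neurons 109, CT18 CTRL 106 ± 9.05, cortex 89.3 ± 16.7, SCN tissue 88.7 ± 5.02, the time course 54.3 ± 16.0, CCK neurons 23.4 and VIP neurons 0. Here the libraries of each neighbouring pair overlapped except those of CCK and VIP neurons. Levels from the different experiments may carry batch differences, which the labels do not describe, and were not tested against each other.

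The whole family summed to 720 and 506 CPM in AVP neurons, 464 and 322 in CCK neurons and 61.2 and 34.1 in VIP neurons. It summed to 391 and 348 CPM in the SCN, 451 and 422 in hypothalamus and 210.0 and 189 in cortex. miR-344-3p and miR-344d-3p together made up 69.7% to 75.4% of it in the 6 tissue libraries and 89.0% to 91.7% in the AVP and CCK libraries. In VIP neurons they made up 0% and 12.6%, and the rest was miR-344f-5p.

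The 11 lower members never exceeded 14 CPM. The highest was miR-344e-3p, which shares the seed of miR-344d-3p. It stood at 14 and 8.8 CPM in CT18 CTRL, 7.9 and 9.8 in CT18 LP, 2.5 to 5.7 in SCN and hypothalamus tissue, 1.7 to 4.4 along the time course and 0 and 1.0 in cortex, with 0 reads in all neuron libraries. The next were miR-344c-3p, with at most 3.1 CPM (in cortex), and miR-344h-3p, with at most 2.2 CPM. miR-344-5p, the partner strand of miR-344-3p, had 1 read in all 27 libraries together, beside 5300 reads of miR-344-3p. miR-344i and miR-344c-5p had 2 reads each. Members listed per library numbered 7 to 13 in tissue and 1 to 5 in neurons.

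miR-410-3p, the other miRNA with the seed AUAUAAC, had reads in all neuron libraries, also where miR-344d-3p had few or none. It stood at 679 and 380.3 CPM in VIP neurons, 1354 and 1720 in AVP and 597 and 729 in CCK neurons. Its levels were above those of miR-344d-3p in each of the 6 neuron and 6 tissue libraries. In SCN tissue it stood at 1074 and 863 CPM, and its difference between SCN and hypothalamus did not pass the test (log2 fold change -0.32 ± 0.13, limma adjusted p = 0.0515). Against cortex it was higher in SCN (0.58 ± 0.13, limma adjusted p = 0.00246) and in hypothalamus (0.90 ± 0.13, limma adjusted p = 0.000313).

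Likeness was measured as the Pearson correlation of log2 values over all 27 libraries, among 421 other miRNAs with at least 10 CPM in at least 2 libraries, as a description. Closest to miR-344-3p were miR-27b-3p (r = 0.93), miR-674-3p (0.90), miR-1981-5p (0.89), miR-26b-3p (0.88) and miR-27a-3p (0.88). Closest to miR-344d-3p were miR-1981-5p (r = 0.91), miR-296-3p (0.90), miR-412-5p (0.86), miR-140-3p (0.85) and miR-540-5p (0.83). Without the 6 neuron libraries the likeness was lower. Over the other 21, r of miR-27b-3p with miR-344-3p was 0.47, and r of miR-1981-5p was 0.67 with miR-344d-3p but -0.34 with miR-344-3p. miR-27b-3p, for example, had a mean of 6066 CPM in AVP and 5224 in CCK but 117 in VIP neurons, and miR-1981-5p had 48.4, 30.2 and 0 CPM. Libraries share their depth and their experiment within these correlations.

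Among the members themselves, the correlation of miR-344-3p with miR-344d-3p was 0.78 over all 27 libraries and -0.54 over the 21 tissue libraries. In tissue, miR-344-3p went most closely with miR-344b-3p (r = 0.77), and miR-344f-3p with miR-344f-5p (r = 0.79), the strands that were found in different neuron types. These values are descriptions over libraries that belong to different groups.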

How the data were processed

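Small RNA of C57BL/6 mouse tissue and SCN neurons was sequenced from Trizol-extracted RNA of frozen tissue, per the labels' protocols. Bowtie and the build GRCm38 (mm10) are named per the submitters' processing notes, with no version or role. Each deposited value is a normalized signal for 1 mature miRNA: its reads, scaled so that a library sums to about 10000000, and rounded down. CPM is the deposited value divided by 10. Read numbers were recovered from the step between values (100% of values in all 27 libraries, and 100% of reads on 6 simulated libraries). A miRNA that a library does not list was counted as 0.

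limma 3.58.1 (limma-trend, R 4.3.3) was fitted to log2(value + 1) over all miRNAs that reached 100 (10 CPM) in 2 or more libraries (3 for the time course), separately for the tissues, CT18 and the time course (cosine and sine of a 24 h period). p-values are two-sided, with Benjamini-Hochberg adjustment over all miRNAs tested and a threshold of 0.05. Folds are quotients of mean CPM, and fitted log2 fold changes include the pseudocount, which understates changes of low miRNAs. The models were tested on simulated data. There, limma on values scaled to a fixed total called more unchanged miRNAs than edgeR or DESeq2 did in every comparison but SCN against cortex. Nothing is read from that exception about the SCN and cortex libraries themselves, or about how sound the limma calls between them are. Alternatives were median-ratio scaling, quantile normalization, other filters, a pseudocount of 10, edgeR 4.0.16 and DESeq2 1.42.0 on recovered reads, a replicate block, and leaving out each library. Samples were grouped by their labels. The members, marker lists and tests were chosen with earlier results of these data known. Members with at least 10 CPM in at least 2 of the 27 libraries were described singly. Sequences are from RefSeq (GRCm38.p6).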

Additional observations from a re-analysis of the deposited data

How the results depend on the processing

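Counts of called members, or of members that stood apart in neurons, were recomputed in 102 combinations of comparison and setting. Of these, 96 stayed within 1.5 times the reported count, a rule under which 3 to 2 or 4 to 3 counts as unmoved. Some of the 102 could hardly move, since the CT18 and rhythm counts began at 0. Others left out a library of a group outside the contrast. In SCN against cortex, 2 called members became 1 under quantile normalization and 5 of 11 tested without a filter on low values. In hypothalamus against cortex, 4 became 1 under quantile normalization and 1 with DESeq2, and 2 to 4 when each library was left out, the lowest without the second cortex library. For LP against CTRL, 0 became 0 to 1 when each library was left out. The rhythm count stayed at 0 and the SCN against hypothalamus count at 3 when each library was left out. In neurons, leaving out each library gave 3 to 4 (AVP against VIP), 2 to 3 (AVP against CCK) and 3 to 4 (VIP against CCK). The cause of these changes was not tested.

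With the replicate number as a block, the called members stayed at 3, 2, 4 and 0 in the 3 tissue contrasts and CT18. Deviations of same-numbered libraries correlated at 0.07, -0.06 and 0.11 between tissues, -0.06, -0.09 and 0.12 between neuron types and 0.25 at CT18. With 2 numbers and no label on what they stand for, the numbers were not taken to pair libraries. Depth limits the AVP and CCK libraries most: 0 reads there allow up to 3.30 to 6.39 CPM.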
